A study of Mus musculus with 9 samples.

Results

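The lysosomal cathepsins and their cystatin inhibitors were examined in the blood of mice with collagen-induced arthritis (CIA), an inflammatory joint disease raised by immunisation with collagen and used as a model of rheumatoid arthritis. The set held 10 genes, chosen by name: the serine protease Ctsa, the cysteine proteases Ctsb, Ctsc, Ctsh, Ctsl, Ctss and Ctsz, the aspartic protease Ctsd, and the inhibitors Cst3 and Cstb. All 10 were found among the 20926 genes of the deposited expression matrix, and all 10 were above the limit on low values, a mean rescaled FPKM of 0.1, which 12366 genes passed. FPKM is the number of fragments per kilobase of transcript, scaled to the mapped fragments of the library.

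All mice were male DBA/1 mice, labelled 7 weeks old. The study's methods give that age for the division into groups, ahead of immunisation and irradiation. The Ctrl group was neither labelled as a CIA model nor irradiated. The CIA group received chick type II collagen in complete Freund's adjuvant and a booster in incomplete adjuvant, and was not irradiated. In the CIA+THz group, the same model was followed by irradiation of the swollen ankle at 0.1 THz for 30 min a day over 14 days. Isoflurane anaesthesia was given during irradiation, and the methods do not say whether the other groups were anaesthetised, so that irradiation and anaesthesia cannot be told apart here. Each group held 3 libraries from different mice. The labels name blood leukocytes, whereas the extraction was of total blood RNA. Alas2, a haem synthesis enzyme of red-cell precursors, accounted for 11.4% to 16.7% of all FPKM in the different libraries. Read depth cannot be read from FPKM.

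Cathepsins are proteases of the endosome and lysosome, made as inactive precursors and activated in the acid interior of these compartments. Ctsd and Ctsb are broad digestive enzymes, while Ctss and Ctsl cut the invariant chain (Cd74) that occupies the groove of MHC class II molecules. Ctsc activates the serine proteases of neutrophil and cytotoxic granules by removing a dipeptide. Ctsa is a carboxypeptidase that also protects the lysosomal sialidase Neu1 and the galactosidase Glb1. Cst3, known as cystatin C, is secreted, and Cstb, known as stefin B, is cytosolic, and both block cysteine cathepsins. Monocytes, macrophages and neutrophils are rich in these enzymes.

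The 10 genes lie apart from one another on 7 chromosomes of GRCm38 (GENCODE annotation), and all are protein-coding. Ctsa spans chr2:164832873-164841032 on the plus strand, and Ctsz (chr2:174427493-174439039) and Cst3 (chr2:148871722-148875692) lie on the minus strand of the same chromosome. Chromosome 7 holds Ctsc (chr7:88278085-88310888, plus strand) and Ctsd (chr7:142375911-142388038, minus strand). The others are Ctsb at chr14:63122462-63145923, Ctsh at chr9:90054152-90076089, Ctss at chr3:95526786-95556403 and Cstb at chr10:78425669-78427622, all on the plus strand, and Ctsl at chr13:64359337-64370890 on the minus strand.

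The promoters of 7 of the 10 genes were matched in RefSeq (GRCm38.p6), each as 300 bases around an annotated start. They were searched on both strands for the E-box CACGTG, the palindromic core bound by Tfeb and Tfe3, which drive lysosomal genes, and for GAGGAA, which reads TTCCTC on the other strand, the core bound by PU.1, a myeloid factor. The E-box was found for Ctsa, Ctsd and Ctsl, against 8.09% of the 27025 genes with promoters in RefSeq. GAGGAA was found for Cst3, Ctsc and Ctss, against 31.3% of those genes. The longer E-box form GTCACGTGAC, which contains CACGTG, was found for none of the 7 genes and for 0.37% of all genes. A match is a description of letters and not a binding site. There were 10 matches in all. The 8 that lie wholly before the annotated start are shown 5′ to 3′ on the gene's strand with the motif in capitals and the bases around it, because they divide the matched genes with a motif into separate sets. A second E-box match of Ctsa just after the start, and a second GAGGAA match of Ctss on the opposite strand at the start, are not shown. Each E-box shown, taken with a wider flank than is printed, touched an annotated UTR of some transcript, and its window was cut shorter. As printed, the Ctsd window at chr7:142388057-142388077 lies upstream of the gene, as do the GAGGAA windows shown.
Ctsa, chr2:164833751-164833772, plus strand: agcaaactgtCACGTGatgcag
Ctsd, chr7:142388057-142388077, minus strand: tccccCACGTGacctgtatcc
Ctsd, chr7:142387910-142387935, minus strand: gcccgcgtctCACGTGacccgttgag
Ctsl, chr13:64370741-64370766, minus strand: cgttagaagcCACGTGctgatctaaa
Ctss, chr3:95526592-95526657, plus strand: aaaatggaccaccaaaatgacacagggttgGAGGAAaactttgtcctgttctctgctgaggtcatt
Ctsc, chr7:88277859-88277924, plus strand: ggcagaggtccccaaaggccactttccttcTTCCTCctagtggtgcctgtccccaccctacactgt
Ctsc, chr7:88277906-88277971, plus strand: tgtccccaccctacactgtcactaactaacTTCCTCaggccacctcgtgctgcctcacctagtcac
Cst3, chr2:148875707-148875762, minus strand: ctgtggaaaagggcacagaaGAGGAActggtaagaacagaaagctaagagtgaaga

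The deposited FPKM summed to between 505777 and 530676 in the different libraries, but the level of the typical gene within that sum differed. The deposited FPKM were divided by a median-of-ratios factor (0.847 to 1.24) computed on the 10312 genes above 0 in every library. This moved log2 differences between CIA+THz and CIA by -0.28, between CIA+THz and Ctrl by -0.31 and between CIA and Ctrl by -0.03. For that reason the deposited values are given beside the members' differences that involve CIA+THz where the sign or a count turns with the scale. Correlations between libraries ran from 0.934 to 0.963 within groups and from 0.923 to 0.957 between groups. All levels below are rescaled FPKM. Differences are on the scale of log2(rescaled FPKM + 0.1), with the standard error (SE) and limma's moderated test over 12366 genes. A gene was called where limma's p, before adjustment, was below 0.05 and the log2 difference exceeded 0.67 in size. These limits follow the criterion of the study's methods. Adjusted p are Benjamini-Hochberg values over all genes tested.

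The 10 genes spanned a wide range of levels. Averaged over all 9 libraries, Ctsd was at 938, Ctsb at 567 and Cst3 at 479 FPKM, which placed them 59th, 112th and 133rd of the 12366 genes. Ctss followed at 192, Ctsc at 80.8, Ctsh at 63.0 and Ctsz at 36.7, and Cstb (24.3), Ctsa (17.5) and Ctsl (8.35) closed the order. Neighbours kept this order in 9 of 9 libraries except Ctsb above Cst3 (6 of 9), Ctsh above Ctsz (8 of 9) and Cstb above Ctsa (8 of 9). The spread among the 3 libraries of a group was smallest for Cst3 and Ctss (coefficient of variation 2.50% for Cst3 in Ctrl and for Ctss in CIA+THz) and largest for Cstb in Ctrl (49.2%).

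**Figure D1:**
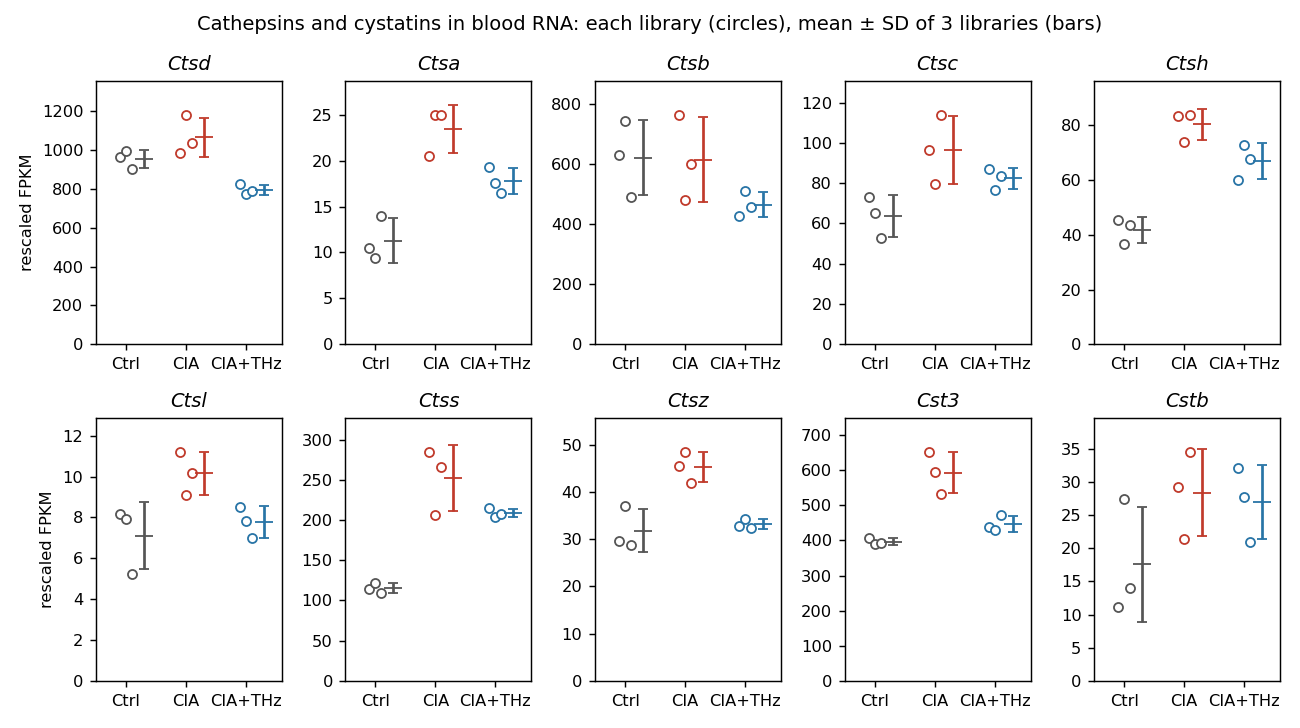
Rescaled FPKM of the 10 genes in each of the 9 libraries, on a separate axis for each gene that starts at 0; points are libraries and bars are group means ± SD of Ctrl, CIA and CIA+THz. Ctss, Ctsh and Ctsa of CIA lie clear of Ctrl with CIA+THz between or touching the CIA range, while the groups of Ctsb overlap.

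Between CIA and Ctrl, 3 of the 10 genes rose by the study's criterion: Ctss (2.17-fold), Ctsa (2.09-fold) and Ctsh (1.93-fold). None fell. Of all genes tested, 9.04% were called, 4.79% as higher and 4.25% as lower. The difference was positive for 9 of the 10, as for 49.3% of all genes. By unadjusted p under 0.05 alone, 7 of the 10 were higher, beside 8.85% of all genes, and 0 were lower, beside 8.45%. The CIA and Ctrl libraries did not overlap for those 7 genes, all higher in CIA, and such separation was seen for 11.8% of all genes. With adjustment over all genes, none of the 10 stayed below 0.05 in limma's test, and 0.154% of genes did. With a correction for GC content, added after seeing the data, 6 of the 10 were called (Ctsa, Ctsc, Ctsh, Ctsl, Ctss and Cstb), beside 7.62% of the genes tested in that fit (930 genes).

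Ctss, an endopeptidase of antigen-presenting cells that stays active at neutral pH, was at 114, 122 and 109 FPKM in the Ctrl libraries. It was at 284, 206 and 266 in CIA and at 215, 204 and 208 in CIA+THz. Every CIA and CIA+THz library was thus above every Ctrl library. The mean was 252 ± 41.0 (SD, n = 3) in CIA against 115 ± 6.22 (SD, n = 3) in Ctrl, a log2 difference of 1.12 (SE 0.145, 95% interval 0.78 to 1.46), or 2.17-fold, with an adjusted p of 0.0501 by limma.

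Ctsh, an aminopeptidase, was at 45.3, 36.5 and 43.5 FPKM in Ctrl, at 83.4, 74.0 and 83.7 in CIA and at 59.9, 73.0 and 67.8 in CIA+THz. Every CIA library was above every CIA+THz library, and every CIA+THz library above every Ctrl library. With the deposited FPKM, CIA (75.8, 71.7 and 83.0) and CIA+THz (74.3, 83.4 and 74.5) overlapped in Ctsh. The log2 difference between CIA and Ctrl was 0.95 (SE 0.124, 95% interval 0.65 to 1.24), or 1.93-fold (limma adjusted p = 0.0501).

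Ctsa, the protective protein of the sialidase complex, was at 10.4, 9.44 and 14.0 FPKM in Ctrl, at 20.5, 24.9 and 24.9 in CIA and at 19.3, 17.6 and 16.5 in CIA+THz. The 3 groups did not overlap after rescaling. With the deposited FPKM, CIA (18.6, 24.2 and 24.7) and CIA+THz (24.0, 20.1 and 18.1) overlapped in Ctsa. The log2 difference between CIA and Ctrl was 1.06 (SE 0.185, 95% interval 0.63 to 1.496), or 2.09-fold (limma adjusted p = 0.0669). Ctss, Ctsh and Ctsa were each called in all 6 fits that left out 1 library.

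Ctsc, Ctsl and Ctsz were higher in CIA by an unadjusted p under 0.05 but by less than the fold the criterion asks for. Ctsc, the activator of granule serine proteases, was at 73.1, 65.0 and 52.7 FPKM in Ctrl, 96.3, 79.4 and 114 in CIA, and 87.0, 76.6 and 83.5 in CIA+THz. Its log2 difference between CIA and Ctrl was 0.60 (SE 0.177), and it passed the criterion without Ctrl replicate 1 or without CIA replicate 2. Ctsl, an endopeptidase of broad use in tissues, was the lowest of the set, at 8.19, 7.93 and 5.22 FPKM in Ctrl, 11.2, 9.09 and 10.2 in CIA and 8.53, 7.81 and 6.99 in CIA+THz. Its difference was 0.53 (SE 0.220), with an unadjusted limma p of 0.0452 that was under 0.05 in 2 of 6 fits that left out 1 library, and 0.103 with scaling to ubiquitous genes. Ctsz, a carboxypeptidase also known as cathepsin X, was at 29.6, 37.0 and 28.8 FPKM in Ctrl, 45.4, 48.5 and 42.0 in CIA and 32.7, 34.3 and 32.4 in CIA+THz. Its difference was 0.51 (SE 0.136). In Ctsz the CIA libraries stood above both other groups, whose ranges overlapped after rescaling. With the deposited FPKM, Ctsz in Ctrl (27.2, 31.4 and 30.4) and in CIA+THz (40.6, 39.2 and 35.6) did not overlap.

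Ctsb and Ctsd, the most abundant enzymes of the set, did not pass the test between CIA and Ctrl. Ctsb was at 631, 743 and 492 FPKM in Ctrl, at 762, 482 and 599.6 in CIA and at 426, 511 and 459 in CIA+THz. All 3 groups overlapped in Ctsb, and its log2 difference between CIA and Ctrl was -0.02 (SE 0.222), with a 95% interval of -0.54 to 0.50. Ctsd was at 966, 994 and 901 FPKM in Ctrl, at 982, 1179 and 1035 in CIA and at 823, 775 and 788 in CIA+THz. The lowest CIA library of Ctsd lay within the Ctrl range. The difference was 0.16 (SE 0.143), with an interval of -0.18 to 0.49, so that a change of the size seen for Ctss, Ctsh or Ctsa lies outside the intervals of both genes.

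Of the inhibitors, Cst3 was at 407, 389 and 392 FPKM in Ctrl, 652, 595 and 533 in CIA and 439, 429 and 474 in CIA+THz. The 3 groups did not overlap in Cst3 after rescaling. With the deposited FPKM, CIA (593, 577 and 529) and CIA+THz (544, 490 and 521) overlapped. Its log2 difference between CIA and Ctrl was 0.58 (SE 0.125, limma adjusted p = 0.0969), short of the fold asked for. Cstb was at 11.2, 27.4 and 14.1 FPKM in Ctrl, at 29.3, 21.4 and 34.5 in CIA and at 32.0, 27.8 and 21.0 in CIA+THz. Ctrl replicate 2 of Cstb sat inside the CIA range, and the difference of 0.77 (SE 0.341, interval -0.03 to 1.57) did not pass. Without that library it was called.

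**Figure D2:**
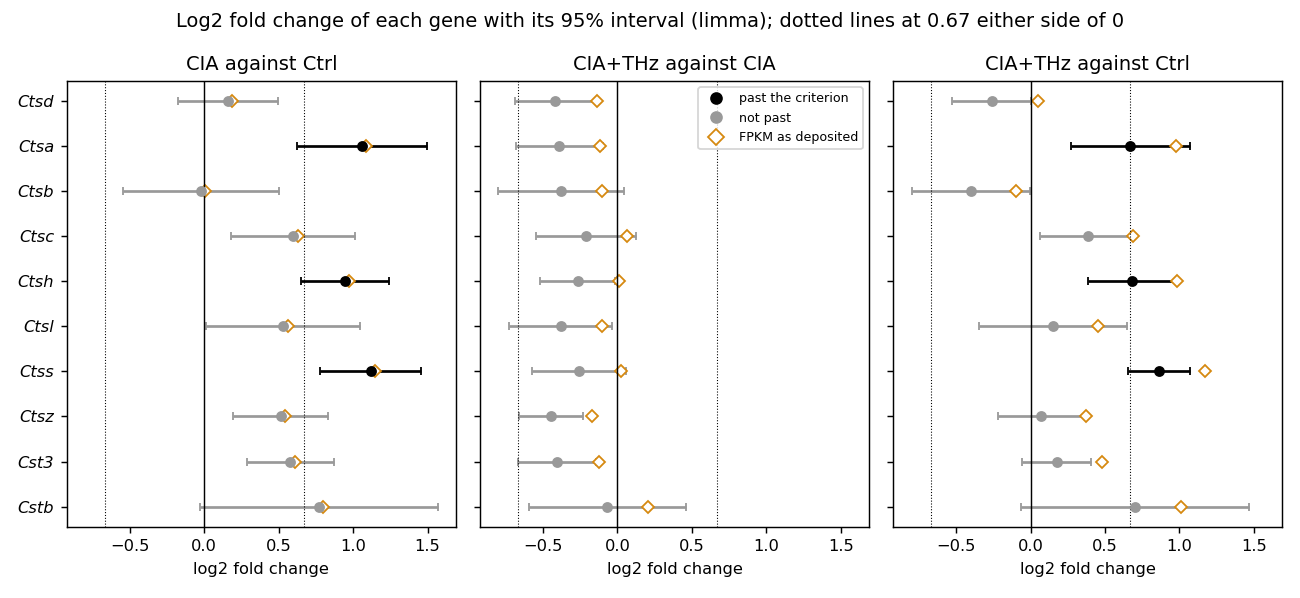
Log2 fold changes of the 10 genes with 95% intervals in the comparisons of CIA with Ctrl, CIA+THz with CIA and CIA+THz with Ctrl, with rescaled FPKM (points with intervals) and with the deposited FPKM (diamonds). In CIA against Ctrl both scalings nearly coincide, and in the comparisons with CIA+THz the deposited values lie to the right by about the rescaling shift.

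Across the 3 groups, limma's F test gave an unadjusted p under 0.05 for 7 of the 10 genes, beside 21.3% of all genes. The exceptions were Ctsb, Ctsl and Cstb. The adjusted p was under 0.05 for Ctss (0.00691), Ctsh (0.0127), Ctsa (0.0242) and Cst3 (0.0482), 4 genes, beside 2.53% of all genes. The group means ran Ctrl, CIA+THz, CIA from lowest to highest in 8 of the 10 genes after rescaling and in 5 of the 10 with the deposited FPKM (Ctsa, Ctsd, Ctsl, Ctsz and Cst3). After rescaling, for Ctsb the order was CIA+THz, CIA, Ctrl, and for Ctsd it was CIA+THz, Ctrl, CIA.

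Comparing CIA+THz with CIA, 0 of the 10 genes were called. Of all genes 4.54% did, 2.94% as higher and 1.60% as lower. After rescaling, the value was lower in CIA+THz for all 10 genes (47.1% of all genes were lower), against 6 of 10 with the deposited FPKM (20.9% of all genes) and 9 of 10 with scaling to ubiquitous genes (27.0% of all genes). An unadjusted p under 0.05 was reached by 6 genes, all lower (7.33% of all genes were lower at that level), against 0 of 10 with the deposited FPKM and 1 of 10, Ctsz, with scaling to ubiquitous genes. These 6 were Ctsz, Ctsd, Cst3, Ctsa, Ctsl and Ctsh. Their CIA+THz libraries all lay below their CIA libraries, as did those of 10.2% of all genes. With the deposited FPKM such separation held for 1 gene of the set. In the whole table the adjusted p of limma was under 0.05 for 0 genes (0.00%) in this comparison, and the unadjusted p was for 1634.

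The sizes of these differences were small. Ctsz was at 33.2 ± 1.03 FPKM (SD, n = 3) in CIA+THz against 45.3 ± 3.25 (SD, n = 3) in CIA, a log2 difference of -0.45 (SE 0.0915), which was -0.17 with the deposited values. For Ctsd the difference was -0.42 (SE 0.113) and for Cst3 -0.40 (SE 0.110), and these were -0.14 and -0.13 as deposited. Ctsa (-0.39), Ctsl (-0.38) and Ctsh (-0.27) followed, at -0.11, -0.11 and 0.01 as deposited. The sign of Ctsh therefore turned with the scaling. Ctsb was at -0.38 (SE 0.178; -0.10 as deposited), Ctss at -0.26 (SE 0.133), Ctsc at -0.21 (SE 0.141) and Cstb at -0.07 (SE 0.222), and with the deposited values Ctss (0.02), Ctsc (0.06) and Cstb (0.21) turned to positive. The limma adjusted p of the 10 genes ran from 0.209 to 0.925. Counts at p under 0.05 moved from 6 to 3 without CIA replicate 3 or CIA+THz replicate 3, and to 9 without CIA replicate 2.

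Between CIA+THz and Ctrl, 3 of the 10 genes were called as higher, beside 7.88% of all genes called and 4.64% as higher. These were again Ctss, Ctsh and Ctsa, in a comparison that shares the Ctrl libraries with the first. The difference was positive for 8 of the 10 genes and for 53.7% of all genes. At unadjusted p under 0.05, 4 were higher, beside 8.39% of all genes, and 1 was lower, beside 9.69%. Ctss was 0.86 higher on the log2 scale (SE 0.0899, 95% interval 0.65 to 1.07), with a limma adjusted p of 0.0305, the only 1 of the 10 under 0.05, beside 0.105% of all genes. Ctsh was 0.68 higher (SE 0.125) and Ctsa 0.67 higher (SE 0.171), both just above the fold asked for. With the deposited values Ctss, Ctsh and Ctsa were at 1.17, 0.99 and 0.98. Ctsa lost its call without Ctrl replicate 1, Ctrl replicate 2 or CIA+THz replicate 1, and Ctsh lost it without Ctrl replicate 2, CIA+THz replicate 2 or CIA+THz replicate 3. With a pseudocount of 1, 1 gene was called, and with the deposited FPKM 5 were. The libraries were separate and higher in CIA+THz for 5 genes (11.9% of all genes) and separate and lower for Ctsd (12.0% of all genes). With the deposited values these counts were 7 and 0. Ctsb was 0.40 lower on the log2 scale (a difference of -0.40, SE 0.170) by an unadjusted limma p of 0.0477, which was under 0.05 in 1 of 6 fits that left out 1 library. With the deposited values its difference was -0.095, with an unadjusted limma p of 0.423. Ctsd was at -0.26 (SE 0.114), which became 0.05 as deposited.

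The make-up of the cathepsin message does not depend on the scaling, since all genes of a library share 1 factor. Among the 8 cathepsins, Ctsd made up 51.8 ± 2.73% of the sum in the Ctrl libraries, 48.9 ± 6.64% in those of CIA and 47.4 ± 1.81% after irradiation (SD, n = 3 each). Ctsb made up 33.5 ± 3.51%, 27.9 ± 5.22% and 27.7 ± 2.27% in the same order. The corresponding shares of Ctss were 6.25 ± 0.331%, 11.5 ± 1.47% and 12.5 ± 0.411%. The share of Ctss was thus higher in every library of both arthritic groups than in any Ctrl library, and its ranges in CIA and CIA+THz overlapped.

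Together Ctsb and Ctsd took between 84.6% and 86.2% of the cathepsin sum in the Ctrl libraries. They took between 75.2% and 79.0% in CIA and between 74.7% and 75.7% in CIA+THz. The Ctrl libraries did not overlap with the others, and CIA and CIA+THz overlapped. Ctsh had a share of 2.29 ± 0.427%, 3.67 ± 0.166% and 3.99 ± 0.363% in the order Ctrl, CIA, CIA+THz. All shares are a description with no test. The ratio of Ctss to Ctsb went with them, at 0.189 ± 0.0300, 0.414 ± 0.0366 and 0.452 ± 0.0516 in that order. The ratio of the summed cystatins to the summed cysteine cathepsins was 0.477 ± 0.0724, 0.575 ± 0.0962 and 0.550 ± 0.0400, and its ranges in the 3 groups overlapped.

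**Figure D3:**
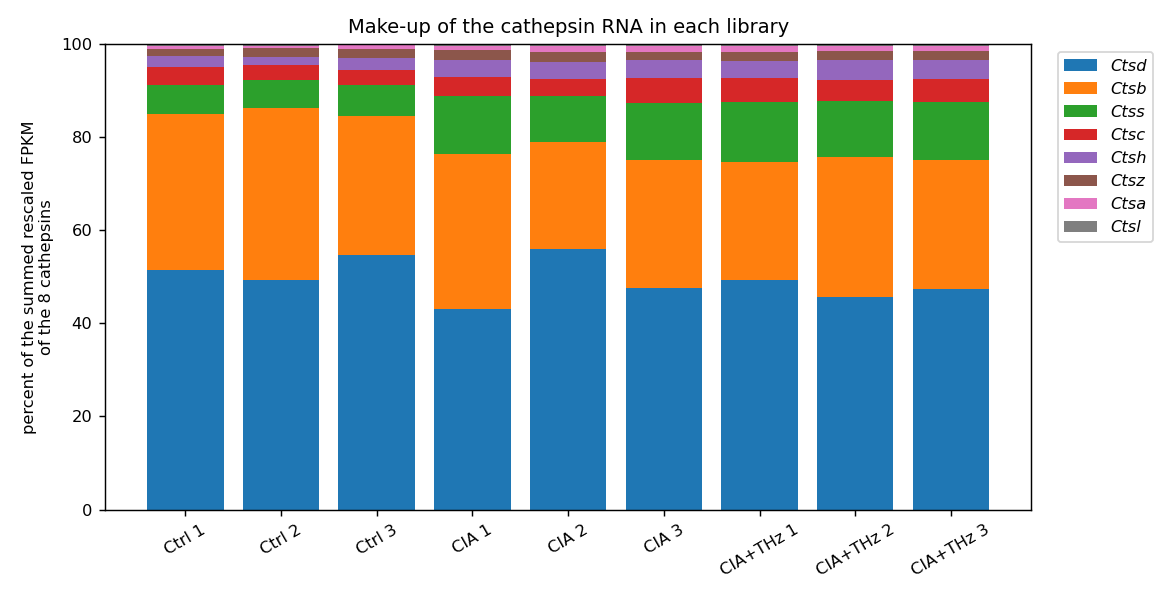
Share of each of the 8 cathepsins in their summed FPKM, in percent, stacked to 100% for each of the 9 libraries. Ctsb and Ctsd together fill 84.6% to 86.2% of the Ctrl libraries and 74.7% to 79.0% of the libraries of both arthritic groups.

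Few other genes of the same families were called. Of 15 other cathepsins, 6 passed the limit on low values, and none was called between CIA and Ctrl (median log2 difference 0.17, against -0.01 over all genes). The other 9, most of them placental cathepsins, were listed at 0 in every group. Ctse, an aspartic protease of red cells and immune cells, had Ctrl, CIA and CIA+THz means of 439.7 ± 73.8, 388 ± 9.49 and 349 ± 10.9 FPKM (SD, n = 3 each). Ctso, a further cysteine cathepsin, had means of 13.8, 15.6 and 25.2 FPKM in the same order. Its log2 difference between CIA+THz and CIA was 0.6698, with an unadjusted limma p of 0.0029, just under the fold asked for, and 1 gene of the list was called there with the deposited FPKM and with scaling to ubiquitous genes. Against Ctrl, Ctso was called higher in CIA+THz (0.89). Ctsk, the collagen-cutting cathepsin of osteoclasts, was listed at 0 in all Ctrl libraries. It averaged 0.573 ± 0.993 FPKM in CIA, an SD above the mean, and 0.157 ± 0.146 in CIA+THz (SD, n = 3 each). The unadjusted limma p of Ctsk in CIA against Ctrl was 0.269. Of 7 other cystatins and stefins, Stfa1, a neutrophil stefin, was called in CIA against Ctrl (8.43 to 13.9 FPKM, log2 difference 0.80), a call lost with scaling to ubiquitous genes and in 5 of 6 fits that left out 1 library (all but that without Ctrl replicate 1). Stfa1 (6.98 FPKM in CIA+THz, -1.03) and Stfa2l1 (8.21 to 4.65 FPKM, -0.79) were called lower in CIA+THz than in CIA, and with the deposited FPKM 1 gene of the list was. Near-identical stefin A copies share reads, so that calls of single copies may not be separate.

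Among the 14 substrates and partners, 4 rose and 2 fell between CIA and Ctrl. The risers included H2-DMb1 (14.8 ± 1.13 to 26.3 ± 1.76 FPKM, 0.83 on the log2 scale), which helps load peptide onto MHC class II, and the class II chain H2-Ab1 (96.1 ± 14.9 to 168 ± 34.5, 0.79). The fallers were Gzma (-1.11) and Gzmb (-0.70), granzymes that Ctsc activates. Cd74, the invariant chain, was at 1201, 1820 and 1885 FPKM in Ctrl, CIA and CIA+THz, a difference of 0.59 between CIA and Ctrl that did not pass. The 6 calls became 2 without CIA replicate 2 and 8 without CIA replicate 1. No gene of this list was called between CIA+THz and CIA. Neu1, the partner of Ctsa, was at 11.2, 14.3 and 10.9 FPKM in Ctrl, CIA and CIA+THz, and Glb1 at 2.19, 2.68 and 2.87, with no call in CIA against Ctrl. The neutrophil serine proteases that Ctsc activates were near 0, with Elane at 0.056, 0.189 and 0.130 FPKM and Ctsg at 0.225, 0.873 and 0.548 in Ctrl, CIA and CIA+THz. Lgmn, which processes several cathepsin precursors, was at 39.7, 46.0 and 40.0 FPKM, and Cst7, an inhibitor of Ctsc, at 11.0, 11.1 and 11.0.

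In the wider lysosomal lists, the called genes were all higher in CIA than in Ctrl. Of 34 hydrolases and activators, 8 rose and 0 fell between CIA and Ctrl, and 29 had a positive difference (median 0.39, 0.24 with scaling to ubiquitous genes, where 3 were called). The hydrolases that rose included Psap, the precursor of the saposins, at 345 ± 12.9 FPKM in Ctrl and 606 ± 27.4 in CIA (0.81), and Man2b2 (5.51 to 11.3 FPKM, 1.01). Of 18 lysosomal membrane proteins, 3 rose, Cd68 (21.0 to 42.3 FPKM, 1.01), Laptm4b and Tmem192. Of 6 other lysosomal proteases, Prcp rose (3.60 to 7.20 FPKM). Of 16 V-ATPase subunits, which acidify the lysosome, Atp6v0d1 rose (141 ± 9.84 to 233 ± 31.5 FPKM, 0.72), and of 13 sorting genes, Nagpa. Over 15 alternatives the calls ran from 3 to 10 for the hydrolases, 2 to 3 for the membrane proteins and 0 to 2 for both the V-ATPase and the sorting genes. The V-ATPase median was 0.21 and the sorting median -0.0028. The transcription factors showed no call, with Tfe3 at 19.8, 30.4 and 22.3 FPKM and Tfeb at 129.6, 183 and 145 in Ctrl, CIA and CIA+THz.

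In CIA+THz against CIA, no gene of the hydrolase, protease, sorting, V-ATPase and transcription factor lists was called, and Laptm4b was called lower among the membrane proteins (1.34 to 0.735 FPKM). That list had 0 calls with the deposited FPKM, and its count moved in 10 of 15 alternatives. The sorting list had 1 call with the deposited FPKM. After rescaling, 22 of 34 hydrolases, 15 of 18 membrane proteins and 14 of 16 V-ATPase subunits were lower, and with the deposited FPKM 7, 6 and 7 were. Their medians after rescaling were -0.08, -0.25 and -0.26, beside 0.03 over all genes, and the median of the 10 cathepsins and cystatins was -0.38. With the deposited FPKM that median was -0.10, beside 0.29 over all genes. Among cell type marker lists, rescaled medians were negative for immature neutrophil granule (-0.62), mature neutrophil (-0.43), platelet (-0.41) and classical monocyte genes (-0.37). As deposited, these were -0.40, -0.16, -0.13 and -0.09. Rescaled medians of the T cell (0.35), NK cell (0.61), B cell (0.24) and patrolling monocyte (0.34) lists were positive.

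**Figure D4:**
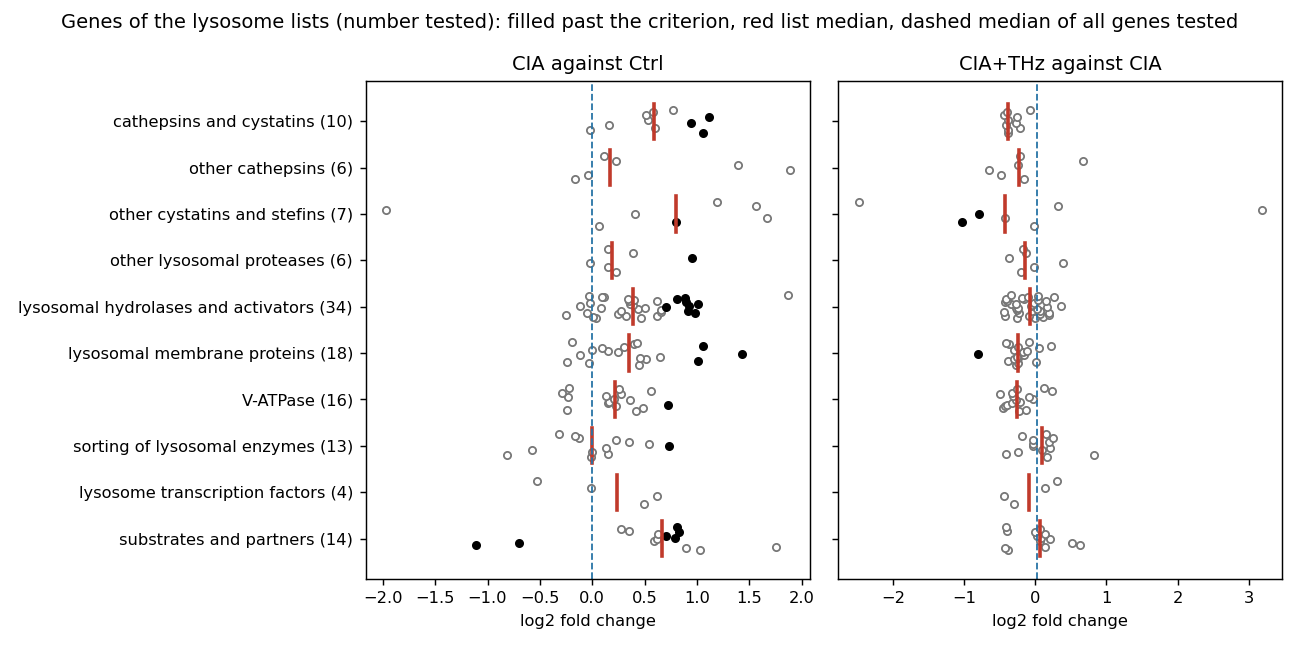
Log2 fold change of rescaled FPKM for each tested gene of the lysosomal lists (circles, filled where called), in CIA against Ctrl and CIA+THz against CIA; red bars are list medians, the dashed line is the median of all genes tested, and the number tested stands beside each list. The 10 cathepsins and cystatins have medians of 0.59 and -0.38, and filled circles of the lysosomal lists on the left are all above 0 except Gzma and Gzmb among the substrates and partners.

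Between CIA and Ctrl, markers of some blood cell types moved in the direction of the cathepsins and cystatins, and those of others moved the other way. In bulk blood, fewer cells of a type and less RNA per cell cannot be told apart. The 12 classical monocyte markers summed to between 3326 and 3703 FPKM in the Ctrl libraries, to between 5552 and 6163 in CIA and to between 3738 and 4028 in CIA+THz. Lyz2, the macrophage lysozyme, supplied between 75.5% and 80.2% of these sums. The other 11 summed to between 797 and 891 FPKM in Ctrl, 1117 and 1247 in CIA and 887 and 962 in CIA+THz. Of these markers, 6 rose and 0 fell in CIA, among them Csf1r (95.2 ± 11.1 to 199 ± 6.18 FPKM, 1.07 on the log2 scale), Clec12a (1.17) and Fcgr1 (2.69). Between CIA+THz and CIA, 1 fell, Cd14 (77.9 ± 6.26 to 44.7 ± 6.11 FPKM, -0.81), which lost its call with the deposited FPKM, and 11 of 12 were lower, against 7 of 12 with the deposited FPKM. Between CIA+THz and Ctrl 9 of 12 were higher (median 0.55), against 11 of 12 with the deposited FPKM (0.86). None of these markers was listed at 0 in any group. Of 12 mature neutrophil markers, 3 fell in CIA and 2 in CIA+THz against CIA (0 with the deposited FPKM), and the list summed to between 13629 and 22324 FPKM in Ctrl, 15284 and 19832 in CIA and 11427 and 12972 in CIA+THz. Of 8 immature neutrophil granule genes, Camp, Ltf, Ngp and Chil3 rose in CIA and were called lower in CIA+THz than in CIA, a comparison that shares the CIA libraries and in which 3 were called with the deposited FPKM. Between CIA and Ctrl 7 of the 8 were higher. The exception was Lcn2, at 330, 253 and 186 FPKM in Ctrl, CIA and CIA+THz (-0.38 between CIA and Ctrl, not called). Elane, Mpo and Prtn3 were near 0 in every group. That list summed to 344 to 568 FPKM in Ctrl, 704 to 1636 in CIA and 422 to 527 in CIA+THz. Its member Mpo was listed at 0 in all Ctrl libraries.

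Other lists moved differently. Between CIA and Ctrl 4 NK cell genes fell (median -0.999) and 4 plasma cell genes fell (median -0.86), while T cell genes had 0 calls (median -0.35). Against CIA, the irradiated group was higher for 9 of 9 T cell genes (median 0.35), 6 of 6 NK cell genes (median 0.61) and 6 of 8 plasma cell genes (median 0.28). The calls in that comparison were Cd5 of the T cell list, Klre1 and Prf1 of the NK cell list and Jchain of the plasma cell list, all higher. The count of T cell calls became 0 without CIA replicate 2 or CIA+THz replicate 1, and that of NK cell calls became 0 without any 1 of CIA replicates 2 and 3 and CIA+THz replicates 1 and 3. That of plasma cell calls became 0 without any 1 of CIA replicates 2 and 3 and CIA+THz replicates 2 and 3. Of 10 erythroid genes, 9 were lower in CIA than in Ctrl (median -0.46), of which Sptb and Klf1 were called. Between CIA+THz and CIA the erythroid median was -0.11 after rescaling and 0.16 as deposited. Alas2 made up at least 98.9% of the summed FPKM of this list in every library, and without it the other 9 genes summed to between 522 and 953 FPKM in Ctrl, 374 and 669 in CIA and 399 and 549.9 in CIA+THz. The patrolling monocyte list summed to between 151 and 206 FPKM in Ctrl, 175 and 220 in CIA and 208 and 230 in CIA+THz. The part of these cell types in the differences of the cathepsins and cystatins was not tested.

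**Figure D5:**
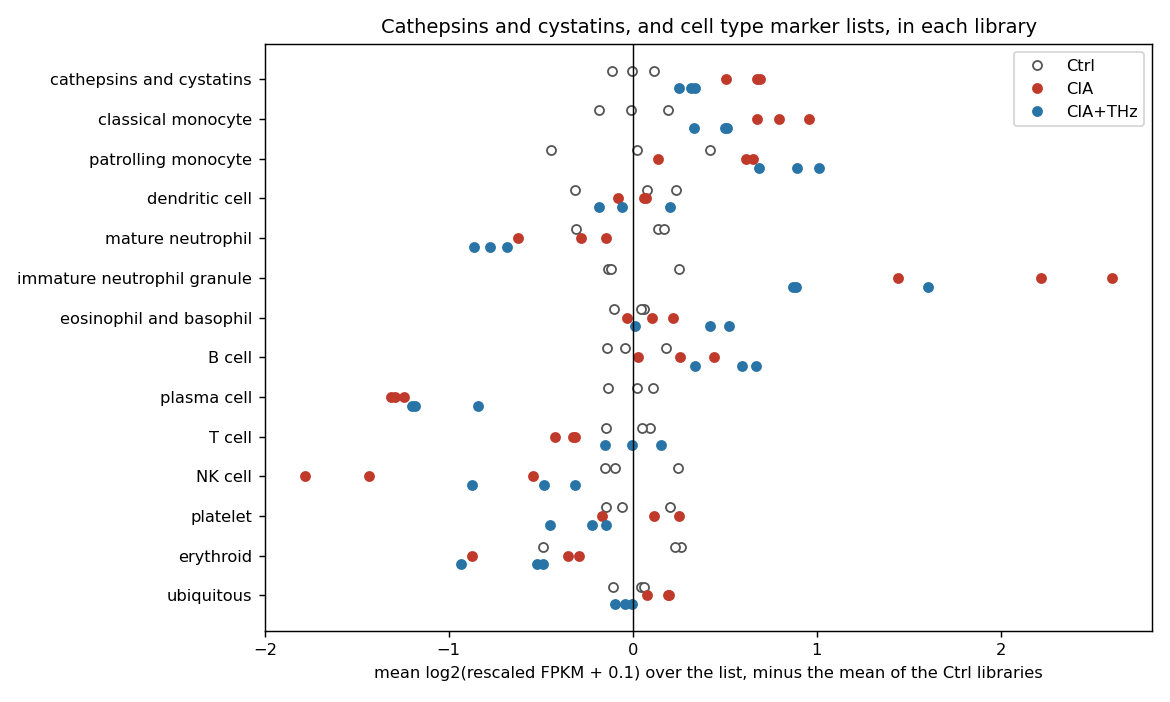
Mean log2 level of the cathepsins and cystatins and of each cell type marker list in each of the 9 libraries, as the difference from the mean of the Ctrl libraries. The classical and patrolling monocyte, B cell and immature neutrophil lists are above the Ctrl mean in the CIA libraries, as are the cathepsins and cystatins. The T cell, NK cell, plasma cell, mature neutrophil and erythroid lists are below it. The ubiquitous list is also above the Ctrl mean in the CIA libraries, at 0.195, 0.194 and 0.078 in replicates 1, 2 and 3.

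The patterns of the 10 genes over the 9 libraries were not alike. Of the 45 pairs, 41 had a Pearson correlation above 0, the closest being Ctsh with Ctss (0.94) and Ctsa with Ctsh (0.90), and the lowest Ctsa with Ctsb (-0.35). The points share libraries and their scaling, and the values are a description with no test. Among 9738 genes with a mean of at least 1 FPKM, those most like the mean pattern of the 10 genes were Sirpb1a (r = 0.988), F10 (0.985), S100a4 (0.985), Rack1 (0.968) and Chil3 (0.967). Fcgrt, Slamf8 and Cybb were nearest to Ctss (0.980, 0.980 and 0.974), and Cpt1a, Tifab and Cybb to Ctsh (0.986, 0.976 and 0.975). Plod3, Pdlim2 and Plxnd1 were nearest to Ctsa (0.982, 0.980 and 0.980), and Hp, Klc4 and C5ar1 to Ctsd (0.987, 0.982 and 0.977). Ctsb was nearest to March5, Hectd4 and Mpp2 (0.974, 0.971 and 0.959). Ccr2, Colec12 and Slc4a2 were nearest to Ctsc (0.962, 0.935 and 0.928), Ppib, Fam192a and Slc25a5 to Ctsl (0.964, 0.946 and 0.941), and Mif and Rpl7a to Ctsz (0.976 and 0.964). Of the inhibitors, Cst3 was nearest to Atp6v0d1, Ppp4c and B9d2 (0.978, 0.968 and 0.965), and Cstb to Fkbp3, Dnajc13 and Exoc3 (0.952, 0.944 and 0.934).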

How the data were processed

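RNA from the blood of 3 mice per group was sequenced by the authors as paired-end libraries on the Illumina HiSeq platform, and they deposited FPKM per gene for 9 libraries. The submitters' processing notes name bcl2fastq 2.0, HISAT2, StringTie, DESeq2 and mm10, with no order. How strand or shared reads were treated is not given in the sources used here. Depth per library is unknown because FPKM hold no counts. The FPKM were rescaled by median of ratios, filtered at a mean of 0.1, transformed as log2(value + 0.1) and fitted with limma-trend (limma 3.58.1, R 4.3.3), each pair of groups on its own 6 libraries, and with an F test over all 9. P-values set each difference against the spread between these libraries only, with limma's variance moderated by a trend over all genes tested.

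The genes and lists were chosen with earlier results of these data known. All 10 genes are named, with the up to 4 (CIA against Ctrl) or 3 (CIA+THz against CIA) called genes of smallest p from each list, partners with no regard to value, and the nearest patterns (3 per gene, 5 for the mean). Some genes that this rule names are not reported here. Alternatives were the deposited scale, a ubiquitous-gene scale, another pseudocount, other filters, fits without trend or with all libraries, adjusted p, each library left out, a replicate block and, chosen after seeing the data, a GC correction. Libraries with the same replicate number came from different mice, and their deviations from group means correlated between -0.052 and 0.031. The code was tested on simulated data.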

Additional observations from a re-analysis of the deposited data

How the results depend on the processing

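Of the counts of called cathepsins and cystatins, that of CIA against Ctrl (3) became 6 with the GC correction, chosen after seeing the data, and 0 with adjusted p. That of CIA+THz against Ctrl (3) became 5 with deposited FPKM, 1 with a pseudocount of 1, 1 with the GC correction, 1 with adjusted p and 2 to 3 with 1 library left out. That across the 3 groups (7) became 4 with adjusted p and 6 to 9 with 1 library left out. That of CIA+THz against CIA was 0 throughout. At unadjusted p under 0.05, CIA+THz against CIA (6) became 0 with deposited FPKM, 1 with ubiquitous scaling, 9 with the GC correction and 3 to 9 with 1 library left out. CIA+THz against Ctrl (5) became 3 without the trend and 3 to 5 with 1 library left out. The number of lower genes became 0 with deposited FPKM, 2 with the GC correction and 0 to 1 with 1 library left out in CIA against Ctrl (1), 6 with deposited FPKM in CIA+THz against CIA (10), and 1 with deposited FPKM in CIA+THz against Ctrl (2).

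Directions turned where differences were small. In CIA against Ctrl, Ctsb was 0.0080 with deposited FPKM and -0.19 to 0.14 with 1 library left out, positive without Ctrl replicate 2 (0.12) or CIA replicate 2 (0.14), and Ctsd was -0.039 with the GC correction. In CIA+THz against CIA, deposited FPKM gave Ctsc 0.063, Ctsh 0.011, Ctss 0.021 and Cstb 0.21, and Cstb was 0.13 with ubiquitous scaling and -0.26 to 0.10 with 1 library left out, positive without CIA replicate 3 (0.08) or CIA+THz replicate 3. In CIA+THz against Ctrl, Ctsd was 0.046 with deposited FPKM, Ctsl -0.055 (without Ctrl replicate 3) to 0.26 with 1 library left out, and Ctsz -0.060 with the GC correction.

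Of all genes tested, CIA+THz against CIA had 561 called, which became 1199 with deposited FPKM, 918 with ubiquitous scaling, 283 with a pseudocount of 1 and 0 with adjusted p. For all genes tested, CIA+THz against Ctrl (975) became 1720 with deposited FPKM, 1487 without Ctrl replicate 3 and 13 with adjusted p. CIA against Ctrl (1118) became 19 and the F test (2629) became 313 with adjusted p. The cause of these changes was not tested, other than that an adjusted p asks for more.

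With the replicate number as a replicate block, 3, 0 and 3 of the 10 genes were called in CIA against Ctrl, CIA+THz against CIA and CIA+THz against Ctrl, and 7 across the groups. The block moved no such count; the numbers do not pair the mice. Depth is unknown, and 3 libraries a group limit every test.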
